A study of Arabidopsis thaliana with 12 samples.

Results

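RNA of 39 loci of Arabidopsis thaliana was low after 60 min of light in flu/ex1/ydl1 plants, grouped by the time code in the file names. It stood at 0.172 to 0.392 times its dark level there, and at 0.803 to 1.6 times its dark level in flu/ex1 plants. These 39 loci were the ones, of the 36917 counted, that met a rule. The rule asked for a nuclear locus with a mean of at least 10 CPM (counts per locus, scaled to 1 common total of nuclear counts in every library) in flu/ex1/ydl1 at 0 min, a ratio of the 60 min mean to the 0 min mean of at most 0.4 in flu/ex1/ydl1 with both 60 min libraries below both 0 min libraries, and a ratio of at least 0.8 in flu/ex1. The fall at 60 min in flu/ex1/ydl1, and the lack of a fall below 0.8 in flu/ex1, are therefore what chose the genes. Both are given below as description, with no test.

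RNA was sequenced from 12 libraries of whole plants, 6 of flu/ex1 and 6 of flu/ex1/ydl1. All plants were 6 d old, had grown in soil under continuous light, spent 4 h in darkness and were collected after 0, 30 or 60 min in the light. Each of the 6 groups had 2 libraries. Every plant thus carried mutations in FLU and EX1, and the genotypes differ in ydl1; no wild type, flu or ydl1 single mutant is compared here, and the labels give no allele. Nothing in the labels says whether libraries of a group came from separate plants or cultures, so a p-value measures only the spread between these samples.

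The flu mutation lets protochlorophyllide, the pigment from which chlorophyll is made, build up in darkness, and on return to light this pigment generates singlet oxygen inside plastids. Much of that signal reaches nuclear genes through EX1, a protein of the plastid. The title of the series asks whether YDL1 holds back the expression changes that singlet oxygen brings. Light after darkness also acts on growth genes through photoreceptors: many SAUR genes, whose short auxin-induced proteins promote cell expansion, B-box zinc finger regulators of light-driven development, and type-A response regulators, which dampen cytokinin signalling, change quickly when light conditions change.

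The times in the file names and in the labels differed for 8 of the 12 libraries, and the rule uses the file names. For 4 libraries both sources gave one time. By their labels these were replicates 2 at 0 min and 3 at 60 min of flu/ex1, and replicates 1 at 0 min and 2 at 60 min of flu/ex1/ydl1. Times below are those of the file names unless the labels are mentioned, and which of them is right cannot be told from the labels. Because the rule used the 8 libraries of 0 and 60 min, only the comparison of the genotypes at 30 min sets libraries outside the rule against each other. The spread behind its p-values was estimated over all 12 libraries, so those p-values are not free of the rule's libraries.

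Total counts ran from 7859611 to 11591060 per library, and nuclear counts from 2469353 to 4209672, since 63.3% to 71.7% of counts fell on plastid loci. The genes of the rule stood lowest, with a median log2(CPM + 1) of 2.55, in the library labelled flu/ex1/ydl1 60 min replicate 2, where FLU itself was at 66.8 CPM against 117 to 180 CPM in the other 11 libraries. YDL1 is not a symbol in the reference, and its level was not checked. Scaling matters for every genotype comparison: over the 9392 nuclear loci at 10 CPM or more, the median log2 ratio of flu/ex1/ydl1 to flu/ex1 was -0.22, -0.18 and -0.38 at 0, 30 and 60 min in CPM of nuclear counts, and -0.00, -0.00 and -0.05 over the loci tested after TMM scaling, which the fitted fold changes use.

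Of the 39 loci, 33 encode proteins, 2 are snoRNA genes, 2 are pseudogenes, 1 is an lncRNA gene and 1 is a tRNA gene. Among the 141 nuclear loci that met the conditions on level, fall and overlap in flu/ex1/ydl1, the other 102 had a flu/ex1 ratio under 0.8, and 17 of those had one of at most 0.4. The genes of the rule are thus the part of a larger set with the highest flu/ex1 ratios, as the plot of both ratios shows. Membership leaned on the scaling and on single libraries. With TMM factors over nuclear loci the rule found 54 loci, 24 of them among the 39, and without the library labelled flu/ex1/ydl1 30 min replicate 1 it found 385, 35 of them among the 39.

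**Figure D1:**
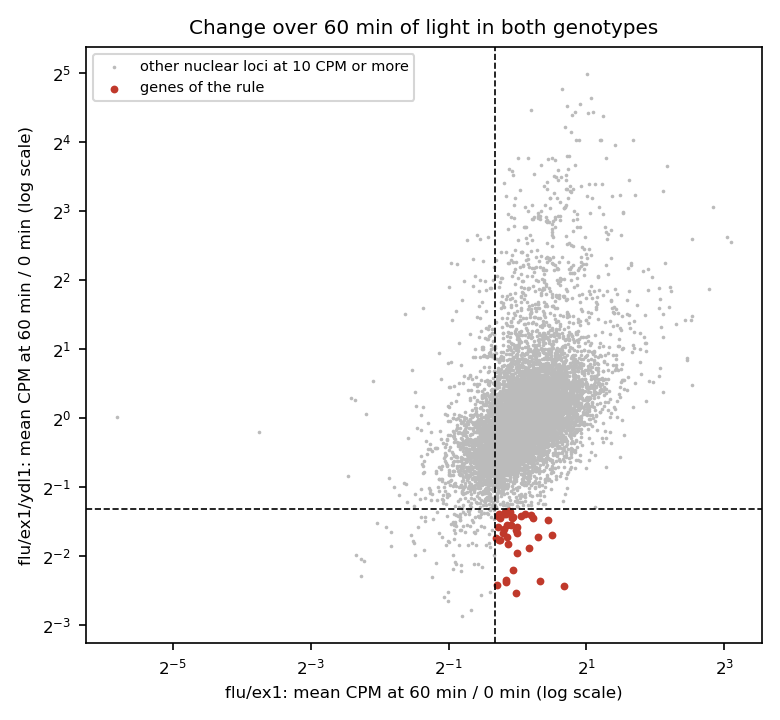
Ratio of mean CPM at 60 min to mean CPM at 0 min in flu/ex1 (x axis) and in flu/ex1/ydl1 (y axis), both on log scales, by file-name time with 2 libraries per mean. Each point is a nuclear locus at 10 CPM or more, the 39 red points are the genes of the rule, and the dashed lines mark the ratios 0.8 and 0.4 that chose them; the red points lie in a corner that continues without a gap into the other loci.

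The limits cut through a continuum. Just inside the flu/ex1/ydl1 limit were AT2G14460 (0.388), MLP423 (0.389) and AT1G69760 (0.392), and just outside were AT2G35470 (0.401), AT3G11110 (0.402) and AT1G49975 (0.407). On the flu/ex1 limit, AT1G71970 (0.803), AT3G06070 (0.811) and AT2G07692 (0.820) were inside, and AT1G12020 (0.799), AT2G01913 (0.791) and AT5G07725 (0.791) outside. At the level limit, AT4G04485 (10 CPM), AT4G05735 (10.1 CPM) and AT1G09087 (11 CPM) were inside, and AT3G04975 (9.97 CPM), AT5G18430 (9.83 CPM) and GATA2 (9.63 CPM) outside.

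The largest gene family among the members was SAUR, with SAUR63 (AT1G29440), AT1G29500 and SAUR68 (AT1G29510) in one run on chromosome 1, and AT2G21210 on chromosome 2. The 250 bases upstream of their gene starts are shown because all of these windows hold CACATG, an E-box that light-regulated PIF transcription factors are known to bind, read on either strand and printed in capitals. Windows are 5′ to 3′ on the strand of the gene (SAUR63 and AT2G21210 minus, AT1G29500 and SAUR68 plus), from the gene starts and sequence of RefSeq's TAIR10.1.
SAUR63: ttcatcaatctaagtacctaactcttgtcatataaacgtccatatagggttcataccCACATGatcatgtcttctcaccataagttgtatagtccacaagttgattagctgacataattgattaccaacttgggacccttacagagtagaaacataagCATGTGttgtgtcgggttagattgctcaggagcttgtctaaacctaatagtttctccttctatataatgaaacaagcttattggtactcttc
AT1G29500: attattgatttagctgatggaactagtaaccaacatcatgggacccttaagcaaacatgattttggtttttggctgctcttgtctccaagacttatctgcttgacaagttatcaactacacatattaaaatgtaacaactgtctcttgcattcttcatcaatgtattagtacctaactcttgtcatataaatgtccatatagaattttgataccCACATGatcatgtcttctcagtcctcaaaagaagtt
SAUR68: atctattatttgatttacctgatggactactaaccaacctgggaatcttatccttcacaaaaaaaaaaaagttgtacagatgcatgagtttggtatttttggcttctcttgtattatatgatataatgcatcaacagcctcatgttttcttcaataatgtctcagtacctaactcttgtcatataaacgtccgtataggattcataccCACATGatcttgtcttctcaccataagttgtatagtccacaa
AT2G21210: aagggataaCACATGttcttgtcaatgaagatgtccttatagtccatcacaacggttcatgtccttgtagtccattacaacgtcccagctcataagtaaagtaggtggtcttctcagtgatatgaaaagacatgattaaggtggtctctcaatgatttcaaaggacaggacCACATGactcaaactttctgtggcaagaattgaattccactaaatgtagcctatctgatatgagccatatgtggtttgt

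The 3 windows from chromosome 1 resemble each other. Their longest shared run has 24 bases, agtacctaactcttgtcatataaa, and lies upstream of a CACATG in each. The CACATG begins 193 bases before the gene start in SAUR63, 36 in AT1G29500 and 42 in SAUR68. SAUR63 has a further match on the other strand at 92 bases, and AT2G21210 has matches at 241 and 79 bases.

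Over the 33 members with such a window, all of them protein-coding, CACATG on either strand was present in 6 (18.2%) against 10.8% of the 16621 windows of tested protein-coding loci. Besides the SAUR genes it was found in AT1G26920 and GER3. The auxin response element TGTCTC was present in 6 (18.2%) against 10.6%, 2 of them AT1G29500 and SAUR68. Shares for TTGAC, the core of the W-box bound by WRKY factors, were 45.5% against 44.6%, and for TATAAA 48.5% against 45.5%. The G-box CACGTG was present in 1 window (3.03% against 7.47%), the telo-box AAACCCTA in 1 (3.03% against 3.57%), and AAAATATCT (2.58% of all windows), GCCGCC (2%) and CGCGT (7.62%) in none. Each motif was searched alone on both strands, overlaps between motifs were allowed, and a match is only a match of letters.

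Protein-coding members had few exons. A single exon was annotated for 16 of 33 (48.5%) against 13.7% of the 16622 tested protein-coding nuclear loci, and the median transcript was 1143 bases against 1758 bases. The 4 SAUR genes and AT2G07692, which duplicates mitochondrial sequence, are among them.

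The SAUR members of chromosome 1 had lower levels in flu/ex1/ydl1 than in flu/ex1 at 30 and at 60 min, with no overlap. In CPM, 36.4% of the 9392 loci were lower without overlap at 30 min and 44.7% at 60 min, so this is common. SAUR63 was at 11.1 and 11 CPM at 0 min, 11.6 and 12.7 at 30 min and 9.30 and 10.5 at 60 min in flu/ex1. In flu/ex1/ydl1 SAUR63 was at 14 and 16.6 CPM at 0 min, 3.92 and 5.63 at 30 min and 2.83 and 3.19 at 60 min. Every flu/ex1/ydl1 library after light lay below every flu/ex1 library for this gene, whereas at 0 min flu/ex1/ydl1 was the higher genotype.

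AT1G29500, which the reference also calls SAUR66, was at 8.36 and 10.7 CPM, then 11 and 8.66, then 11.5 and 19 at 0, 30 and 60 min in flu/ex1. Its flu/ex1/ydl1 values were 5.17 and 19.4 CPM, then 2.75 and 4.16, then 1.62 and 2.92. The 0 min libraries of flu/ex1/ydl1 differed widely and overlapped those of flu/ex1, and its ratio of 0.185 leans on the higher of them.

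SAUR68 was at 14.3 and 14.6 CPM at 0 min, 11 and 12.4 at 30 min and 9.30 and 16.6 at 60 min in flu/ex1. In flu/ex1/ydl1 SAUR68 stood at 12.6 and 17.7 CPM, then 4.71 and 3.91, then 5.67 and 3.46. Its flu/ex1/ydl1 libraries of 30 and 60 min overlapped, so no further fall was seen after 30 min. AT2G21210, also called SAUR6, was at 135 and 137 CPM, then 83.6 and 112, then 122 and 105 in flu/ex1. The same gene was at 134 and 99.9 CPM, then 64.8 and 54.6, then 49 and 40.4 in flu/ex1/ydl1, below flu/ex1 at each time, by as little as 1 library's 134 against 135 CPM at 0 min and by more at 30 and 60 min.

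Neighbours in the run that are outside the rule were low at 60 min in flu/ex1/ydl1 too. AT1G29430, AT1G29450 and AT1G29460, SAUR genes of the same stretch, had flu/ex1/ydl1 ratios of 0.159, 0.143 and 0.122, lower than any member, but flu/ex1 ratios of 0.499, 0.497 and 0.494. All of them missed the flu/ex1 limit, and AT1G29450 and AT1G29460, at mean levels of 8.86 and 6.55 CPM in flu/ex1/ydl1 at 0 min, also missed the level limit. AT1G29435, a member annotated as an uncharacterized protein, overlaps SAUR63 and AT1G29450 on the opposite strand. It was at 9.95 and 7.46 CPM, then 9.08 and 9.28, then 6.92 and 8.55 in flu/ex1, and at 10.7 and 14.9, then 2.35 and 3.91, then 2.02 and 2.92 in flu/ex1/ydl1. Its course follows that of SAUR63, and since the strand setting of the counting is not given in the sources used here, reads of the overlapping loci cannot be told apart. SAUR63 also matches AT1G29510, which is SAUR68, at 91.7% identity over 90.2% of its length, and SAUR68 matches sequence at AT1G29435 at 93.5% over 85.3%, so counts within the run are uncertain.

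**Figure D2:**
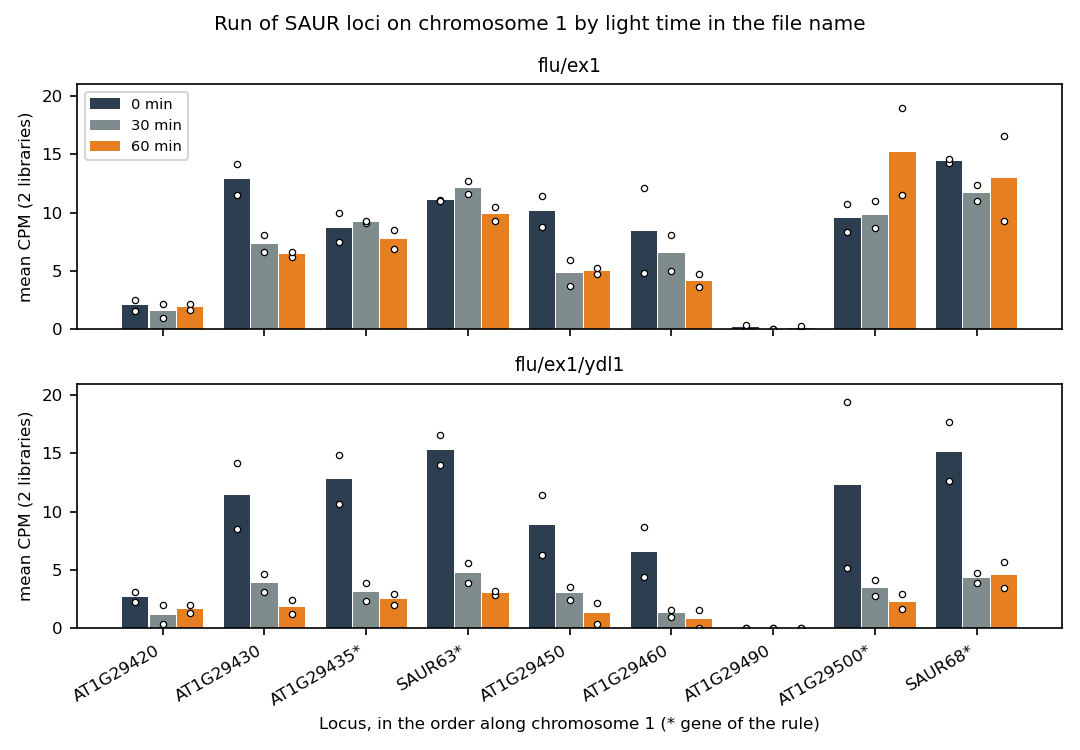
Mean CPM of nuclear counts (bars, 2 libraries each, circles for the libraries) at 0, 30 and 60 min by file name in flu/ex1 (top) and flu/ex1/ydl1 (bottom), for the SAUR loci of the run on chromosome 1 and AT1G29435, in chromosomal order. The genes of the rule, marked with an asterisk, fell by 30 min in flu/ex1/ydl1, while AT1G29430, AT1G29450 and AT1G29460 had lower means at 60 than at 0 min in both genotypes.

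Across the family, 41 SAUR genes had enough counts to be tested. From 0 to 60 min, 20 of the 41 passed as lower and 4 as higher in flu/ex1/ydl1 (edgeR, Benjamini-Hochberg adjusted p under 0.05), with a median log2 fold change of -1.59, against 3.17% lower and 9.6% higher over all 17879 loci tested. In flu/ex1, 2 passed as lower and 0 as higher, with a median of -0.63, against 0.341% and 1.03% of all loci. AT4G38840 and AT4G38860, which are not members, were lower in flu/ex1/ydl1 by log2 fold changes of -2.62 and -2.67, with -0.69 and -1.23 in flu/ex1. SAUR24, also outside the rule, was at -2.20 in flu/ex1/ydl1 and 0.16 in flu/ex1. The count of 20 includes the 4 members, which the rule chose for this fall.

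ARR9 (AT3G57040), a type-A response regulator, was lower at 30 min in both genotypes. It stood at 80.8 and 89.1 CPM at 0 min, 62.6 and 56.6 at 30 min and 86.4 and 82 at 60 min in flu/ex1. In flu/ex1/ydl1 ARR9 was at 92.3 and 86 CPM, then 54.2 and 38.4, then 26.3 and 29.8. Both genotypes were lower at 30 min than at 0 min without overlap, and at 60 min flu/ex1 was back at its 0 min level while flu/ex1/ydl1 was lower again. Of the 8 type-A response regulators tested, 6 passed as lower and 0 as higher at 60 min in flu/ex1/ydl1 (median log2 fold change -1.47), against 3.17% and 9.6% of all loci. In flu/ex1 0 of the 8 passed, with a median of -0.93. ARR9, chosen by the rule for this fall, is 1 of the 6. ARR6, ARR15 and ARR4 had log2 fold changes of -1.95, -1.93 and -1.48 in flu/ex1/ydl1 and of -1.17, -0.62 and -1.07 in flu/ex1. The flu/ex1 value of ARR9 was -0.16, which the rule required to be small.

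B-box genes gave 2 members. BBX21 (AT1G75540), which promotes light-driven seedling development together with HY5, was at 11.1 and 13.1 CPM, then 8.77 and 10.2, then 11 and 13.3 in flu/ex1. In flu/ex1/ydl1 BBX21 stood at 20.7 and 16.3 CPM, then 9.42 and 8.07, then 4.45 and 7.97, starting above every flu/ex1 library and ending below every flu/ex1 library of 60 min. BBX14 (AT1G68520), a B-box protein with a CCT domain, was at 101 and 105 CPM, then 34.1 and 34.6, then 80.6 and 91.9 in flu/ex1. Its flu/ex1/ydl1 values were 95.6 and 100, then 45.9 and 72.4, then 24.3 and 47.8. At 30 min BBX14 was thus lower in flu/ex1 than in flu/ex1/ydl1, and at 60 min the order was the opposite. Of the 26 CONSTANS-like and B-box genes tested, 3 passed as lower and 8 as higher at 60 min in flu/ex1/ydl1, against 3.17% and 9.6% of all loci. The lower genes were BBX14 and BBX21, which the rule chose for this, and BBX15. In flu/ex1 1 passed as lower and 6 as higher, against 0.341% and 1.03%. BBX32, BBX31 and BBX30 had log2 fold changes of 3.55, 3.19 and 4.54 in flu/ex1/ydl1 and 1.99, 3.01 and 2.91 in flu/ex1.

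The fall in flu/ex1 at 30 min seen in BBX14 was shared by a group of members. A dip, defined as both 30 min libraries below all libraries of 0 and 60 min with a 30 to 0 min ratio of at most 0.6, was present in flu/ex1 for 7 of 39 members (17.9%) against 139 of 9392 loci (1.48%). This definition was chosen after values had been seen, and the 0 and 60 min libraries are those of the rule, so no test is given. The 7 are BBX14, AT1G23390, AT3G06070, AT5G19190, AT1G02610, AT1G71970 and AT2G26215. In these genes "repressed only in flu/ex1/ydl1" describes 60 min alone.

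AT1G23390, a Kelch repeat F-box protein of the kind that marks other proteins for breakdown, was at 133 and 215 CPM, then 61.1 and 41.1, then 141 and 205 in flu/ex1. It was, in flu/ex1/ydl1, at 199 and 195, then 65.5 and 65.8, then 46.2 and 55.3. Both genotypes were low at 30 min, flu/ex1 slightly lower, after which flu/ex1 returned and flu/ex1/ydl1 did not.

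AT3G06070, an uncharacterized protein, was at 54.9 and 62.1 CPM, then 26.6 and 22, then 46.3 and 48.7 in flu/ex1, and at 49.1 and 91.2, then 14.5 and 28.9, then 4.05 and 22.1 in flu/ex1/ydl1. AT5G19190, also uncharacterized, was at 61.7 and 88 CPM, then 31 and 32.5, then 61.1 and 74.6 in flu/ex1, and at 42.1 and 93.3, then 13.3 and 36, then 4.86 and 33.5 in flu/ex1/ydl1. In both, the flu/ex1/ydl1 libraries of 30 and 60 min overlapped, and the library labelled flu/ex1/ydl1 60 min replicate 2 was the lowest of all.

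AT1G02610, a RING/FYVE/PHD zinc finger protein, was at 7.96 and 8.88 CPM, then 2.82 and 2.47, then 7.39 and 13.3 in flu/ex1, and at 6.65 and 16.3, then 0.392 and 1.96, then 3.24 and 3.72 in flu/ex1/ydl1. It reached its lowest level at 30 min in both genotypes, and in flu/ex1/ydl1 it was higher again at 60 min. AT1G71970 was at 9.16 and 12.8 CPM, then 6.26 and 6.80, then 10 and 7.6 in flu/ex1, and at 14.4 and 11.4, then 7.46 and 4.89, then 4.05 and 3.72 in flu/ex1/ydl1. AT2G26215 was at 12.7 and 14.2 CPM, then 8.45 and 7.11, then 8.59 and 14 in flu/ex1, and at 15.1 and 10.1, then 4.32 and 1.71, then 6.07 and 1.33 in flu/ex1/ydl1. Both of these dips were shallower than that of AT1G23390.

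**Figure D3:**
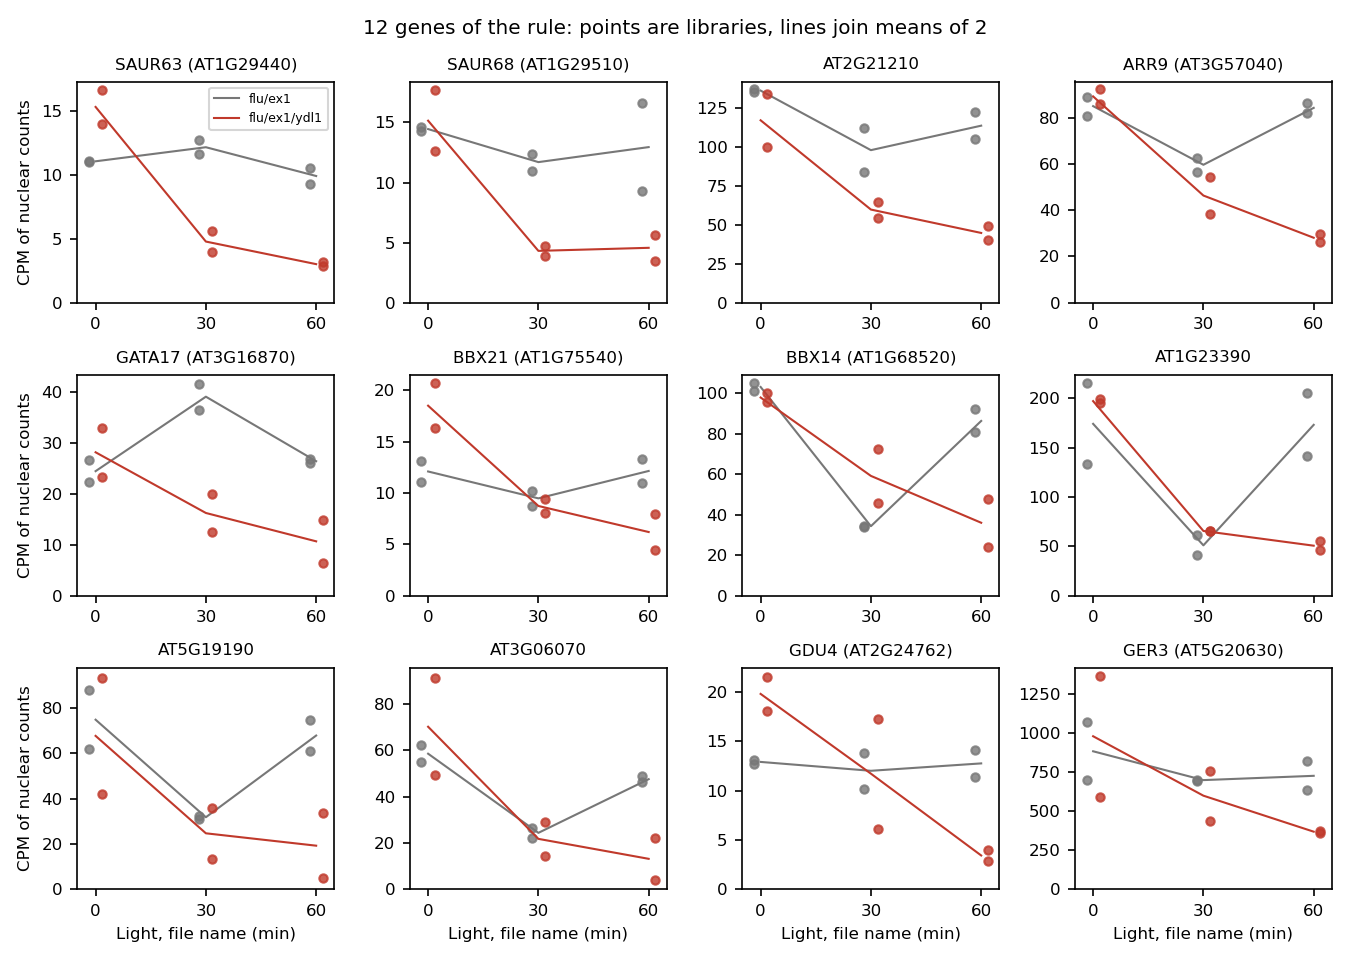
CPM of nuclear counts (y axis, from 0) by light time in the file name (x axis, min) for 12 genes of the rule; points are libraries and lines join the means of 2. SAUR63, SAUR68 and GATA17 were apart between genotypes at 30 min, while BBX14, AT1G23390, AT5G19190 and AT3G06070 were low in both genotypes at 30 min and returned in flu/ex1 at 60 min.

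The members with the highest counts include GER3 (AT5G20630), a germin-like cell wall glycoprotein whose transcript cycles with the circadian clock. GER3 was at 1071 and 698 CPM, then 703 and 696, then 821 and 633 in flu/ex1, and at 1369 and 593, then 761 and 438, then 361 and 376 in flu/ex1/ydl1. Libraries of 0 min differed widely within each genotype, and the genotypes were apart only at 60 min. MLP423 (AT1G24020), a major latex protein-like gene, was at 299 and 294 CPM, then 344 and 308, then 259 and 293 in flu/ex1, and at 301 and 374, then 231 and 232, then 107 and 156 in flu/ex1/ydl1. Its decline in flu/ex1/ydl1 was stepwise, with no overlap between consecutive times.

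AT1G69760, annotated as suppressor SRP40-like, was at 49.4 and 43.7 CPM, then 53.9 and 51, then 43.2 and 42 in flu/ex1, and at 34.3 and 57.9, then 18.1 and 24.7, then 10.9 and 25.3 in flu/ex1/ydl1. AT3G06868, annotated as vitellogenin-like, was at 38.2 and 42.2 CPM, then 39.5 and 62.5, then 34.1 and 42.5 in flu/ex1, and at 42.8 and 46.5, then 27.5 and 27.9, then 11.3 and 21.8 in flu/ex1/ydl1. Both were apart between genotypes at 30 and at 60 min.

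The lowest ratio of all, 0.172, was that of GDU4 (AT2G24762), a glutamine dumper, one of a family of membrane proteins that affect amino acid export. GDU4 was at 12.7 and 13.1 CPM, then 13.8 and 10.2, then 14.1 and 11.4 in flu/ex1, and at 18.1 and 21.5, then 17.3 and 6.12, then 2.83 and 3.99 in flu/ex1/ydl1. Its 30 min libraries in flu/ex1/ydl1 were both below those of 0 min but lay on either side of the flu/ex1 libraries. AT4G28310, annotated as a microtubule-associated protein, was at 28.3 and 27 CPM, then 28.8 and 41.8, then 24.3 and 28.5 in flu/ex1, and at 38.8 and 36.4, then 16.1 and 19.1, then 8.10 and 8.24 in flu/ex1/ydl1. Its replicates were close at every time in flu/ex1/ydl1, with no overlap between times.

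AT1G26920, annotated as a zinc finger CCHC domain protein, was at 8.36 and 19.5 CPM, then 14.1 and 5.57, then 13.1 and 18.1 in flu/ex1, and at 10.3 and 15.3, then 4.71 and 8.56, then 3.24 and 3.72 in flu/ex1/ydl1. The flu/ex1 libraries of 0 and 30 min varied widely. AT2G14460, uncharacterized, was at 29.1 and 18.5 CPM, then 37 and 26.9, then 20.5 and 21.4 in flu/ex1, and at 33.2 and 37.8, then 21.2 and 13.5, then 9.72 and 17.8 in flu/ex1/ydl1. Here flu/ex1/ydl1 started above flu/ex1.

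A higher start was common. At 0 min 17 of the 39 members had both flu/ex1/ydl1 libraries above both flu/ex1 libraries, against 4.14% of the 9392 loci; the rule used the 0 min libraries of both genotypes, so nothing is read from this. AT4G04485 and AT4G05735, which are non-coding, were among them. AT4G04485, an RNA of 143 bases, was at 4.38 and 3.20 CPM, then 6.58 and 4.95, then 5.49 and 4.04 in flu/ex1, and at 9.60 and 10.4, then 4.32 and 2.45, then 2.83 and 1.06 in flu/ex1/ydl1. AT4G05735, on the strand opposite to AT4G09810, was at 5.97 and 6.04 CPM, then 8.14 and 7.42, then 4.06 and 5.94 in flu/ex1, and at 11.4 and 8.67, then 6.67 and 4.40, then 2.43 and 3.46 in flu/ex1/ydl1. For both, the flu/ex1/ydl1 level at 30 min was near the flu/ex1 level at 0 min.

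AT1G09087, an RNA of 83 bases lying within AT1G69620 on the same strand, was at 8.76 and 7.10 CPM, then 11.3 and 10.5, then 7.16 and 6.65 in flu/ex1, and at 14.8 and 7.28, then 8.63 and 4.40, then 4.86 and 2.39 in flu/ex1/ydl1. Its counts cannot be told apart from those of the host gene. In all, 14 members overlap another annotated locus, 11 of them one on the opposite strand.

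Of the remaining members, AT1G10020, ELF4-L4, AT1G34010, AT1G48770, PQL3, ABCI16, AT4G30400, UTr7 and AT5G19340 had flu/ex1/ydl1 ratios of 0.307 (AT1G10020) to 0.383 (AT1G34010) and flu/ex1 ratios of 0.861 (UTr7) to 1.421 (AT1G10020). ELF4-L4 is a relative of the clock gene ELF4, PQL3 a PsbQ-like protein of the chloroplast NDH complex, and UTr7 a member of the nucleotide sugar transporters. Over all 39, the flu/ex1/ydl1 ratio ran from 0.172 to 0.392 with a median of 0.329, and the flu/ex1 ratio from 0.803 to 1.6 with a median of 0.931. A smaller fall in flu/ex1 was allowed by the rule, and the 60 min mean was below the 0 min mean for 29 members. The same held for 3857 of the 9392 loci. After TMM scaling all 39 were past the threshold as lower at 60 min in flu/ex1/ydl1 (3.17% of all loci tested), which is what the rule selected. In flu/ex1 the members' median log2 fold change was -0.26, with 31 of 39 below 0, beside -0.01 and 50.6% of all loci.

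**Figure D4:**
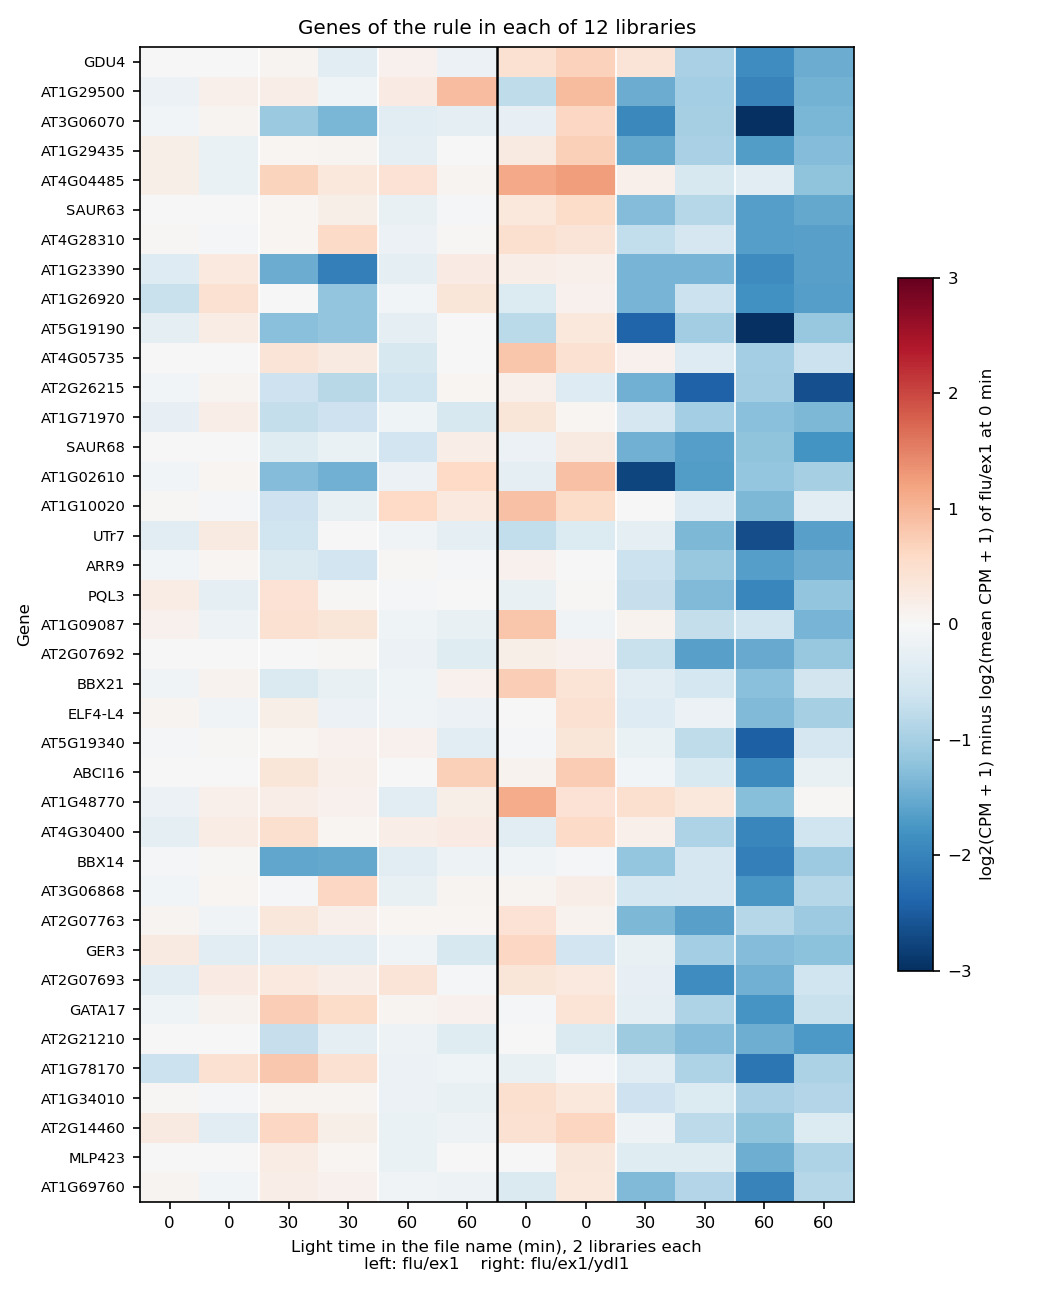
log2(CPM + 1) of the 39 genes of the rule in each of the 12 libraries, minus the log2 of the flu/ex1 mean at 0 min plus 1, with genes in order of their flu/ex1/ydl1 ratio (GDU4 lowest, AT1G69760 highest) and libraries by file-name time. The 30 min columns of flu/ex1/ydl1 (right side) are blue for most genes. Those of flu/ex1 (left side) are both blue for the 7 genes with a dip and for some other genes.

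At 30 min the mean of every one of the 39 members was below its 0 min mean in flu/ex1/ydl1, and for 34 both 30 min libraries were below both 0 min libraries, against 20.8% of the 9392 loci. The 30 to 0 min ratio was at most 0.5 for 19 members and ran from 0.102 (AT1G02610) to 0.884 (UTr7), with a median of 0.504. A further step without overlap from 30 to 60 min was seen for 18 members, against 9.15% of loci. In the fit, 16 of 39 were past the threshold as lower at 30 than at 0 min in flu/ex1/ydl1, against 0.598% of all loci tested. In flu/ex1 the corresponding number was 2 of 39, AT1G23390 and BBX14, against 0.112%. All of these counts share the 0 or the 60 min libraries with the rule, which asked for high levels at 0 min in flu/ex1/ydl1, so they are a description and nothing is read from them.

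The genotypes were then compared at 30 min, in the 4 libraries outside the rule, with the spread estimated over all 12. The labels of these call the flu/ex1 pair replicate 1 of 60 min and replicate 3 of 0 min, and the flu/ex1/ydl1 pair replicate 3 of 0 min and replicate 1 of 60 min, so for all 4 the label gives another time. With edgeR's quasi-likelihood test and adjustment over all 17879 loci, 3 of the 39 members were lower in flu/ex1/ydl1, against 0.352% of all loci, and 0 were higher, against 3.56%. At an unadjusted p under 0.05, 14 members were lower, against 4.72% of all loci, and 1 was higher, against 10.5%. Among the 14 are SAUR63, SAUR68, AT1G29500 and AT1G29435 of the run on chromosome 1, where counts are uncertain. AT2G07692, AT2G07693 and AT2G07763 are also among them, and their reads could come from the mitochondrial genome. The 14 are therefore not separate results. The median log2 fold change of the members was -0.52 and 31 of 39 were below 0, beside a median of -0.00 and 50.2% below 0 over all loci.

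The 3 that passed are a tRNA gene, a GATA factor and a ubiquitin ligase. AT2G07763 (tRNA-Cys), of 71 bases, overlaps AT2G07739 on the opposite strand. The strand setting of the counting is not given, so reads of these loci cannot be told apart. AT2G07763 was at 12.5 and 10.8 CPM in flu/ex1 and 3.14 and 2.45 CPM in flu/ex1/ydl1 at 30 min. Its log2 fold change was -1.89 ± 0.40 (SE), with an edgeR adjusted p of 0.0112. At 0 and 60 min it was at 10.3 and 8.88, and 10 and 9.98 CPM in flu/ex1, and at 13.3 and 10.4, and 4.86 and 3.99 in flu/ex1/ydl1, so 30 min was its lowest time there.

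GATA17 (AT3G16870), a GATA transcription factor, was at 41.6 and 36.5 CPM in flu/ex1 and 20 and 12.5 CPM in flu/ex1/ydl1 at 30 min. Its log2 fold change was -1.13 ± 0.27 (SE, edgeR adjusted p 0.0243). In flu/ex1 both 30 min libraries were above those of 0 min (22.3 and 26.6 CPM) and of 60 min (26 and 26.8 CPM). In flu/ex1/ydl1 the gene was at 23.3 and 33 CPM at 0 min and 6.48 and 14.9 CPM at 60 min. The gap at 30 min thus held a higher mean in flu/ex1 as well as a lower one in flu/ex1/ydl1.

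AT1G78170, annotated as an E3 ubiquitin-protein ligase, was at 45.1 and 35.3 CPM in flu/ex1 and 20 and 13 CPM in flu/ex1/ydl1 at 30 min, a log2 fold change of -1.14 ± 0.30 (SE, edgeR adjusted p 0.0396). It was at 15.9 and 35.1 CPM at 0 min and 22.4 and 23.3 at 60 min in flu/ex1, and at 21.8 and 24.3, and 4.86 and 12.8 in flu/ex1/ydl1. The groups did not overlap at 30 or 60 min and overlapped at 0 min. In flu/ex1 both 30 min libraries were above those of 0 and 60 min, by as little as 35.3 against 35.1 CPM. As for GATA17, the gap at 30 min held a higher mean in flu/ex1 as well as a lower one in flu/ex1/ydl1.

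These calls depended on single libraries, as did those over all loci. Fewer members, and fewer of all loci, passed as lower without the library labelled flu/ex1 60 min replicate 1. The same held without flu/ex1/ydl1 60 min replicate 1 or flu/ex1 0 min replicate 3. With each library left out in turn, log2 fold changes were -1.98 to -1.81 for AT2G07763, -1.32 to -0.95 for GATA17 and -1.3 to -0.98 for AT1G78170. AT2G07763 passed in 15 of 18 alternatives (edgeR or DESeq2 adjusted p 0.00147 to 0.156), GATA17 in 13 of 18 (0.00986 to 0.312) and AT1G78170 in 8 of 18 (0.00893 to 0.359). The members' median stayed between -0.57 and -0.45 throughout. At 30 min the summed level of 10 root markers was 18.6 and 20 CPM in flu/ex1 and 24.7 and 31.4 CPM in flu/ex1/ydl1, and that of 5 guard cell markers was 17.5 to 18.6 CPM and 15.7 to 17.4 CPM. The summed levels of epidermis, phloem, meristem and mesophyll markers overlapped between genotypes at 30 min. None of the 26 markers was at 0 in all libraries, and their part in the difference was not tested. In whole plants, fewer cells of a type and less RNA per cell cannot be told apart.

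The other members did not pass at 30 min. SAUR68, AT1G29435, AT1G29500 and SAUR63 had log2 fold changes at 30 min of -1.27 ± 0.45, -1.29 ± 0.43, -1.25 ± 0.55 and -1.11 ± 0.36 (SE), with edgeR adjusted p of 0.157, 0.133, 0.285 and 0.114. AT2G21210, the SAUR gene of chromosome 2, was at -0.55 ± 0.29 (adjusted p 0.393 with edgeR). PQL3 was at -1.22 ± 0.35 and AT1G69760 at -1.08 ± 0.32 (adjusted p 0.0642 and 0.0745 with edgeR). BBX14 was the member farthest in the other direction, at 1.00 ± 0.30 (adjusted p 0.0787), and ARR9 was at -0.22 ± 0.24 (0.728 with edgeR).

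In the lists that hold members, the genes that passed at 30 min were not members. Over all loci tested, 0.352% passed as lower and 3.56% as higher. Among the 41 SAUR genes 0 were lower and 1, AT3G12830, was higher in flu/ex1/ydl1 (median log2 fold change -0.54). Among the 8 type-A response regulators 0 passed (median -0.12), and among the 26 CONSTANS-like and B-box genes BBX18 was lower and BZS1 and BBX32 were higher (median -0.12).

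On the scale of CPM, 26 of 39 members had both flu/ex1/ydl1 libraries below both flu/ex1 libraries at 30 min, against 36.4% of the 9392 loci, and 3 had both above, against 14.3%. The ratio of the means ran from 0.239 to 1.72 with a median of 0.65.

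**Figure D5:**
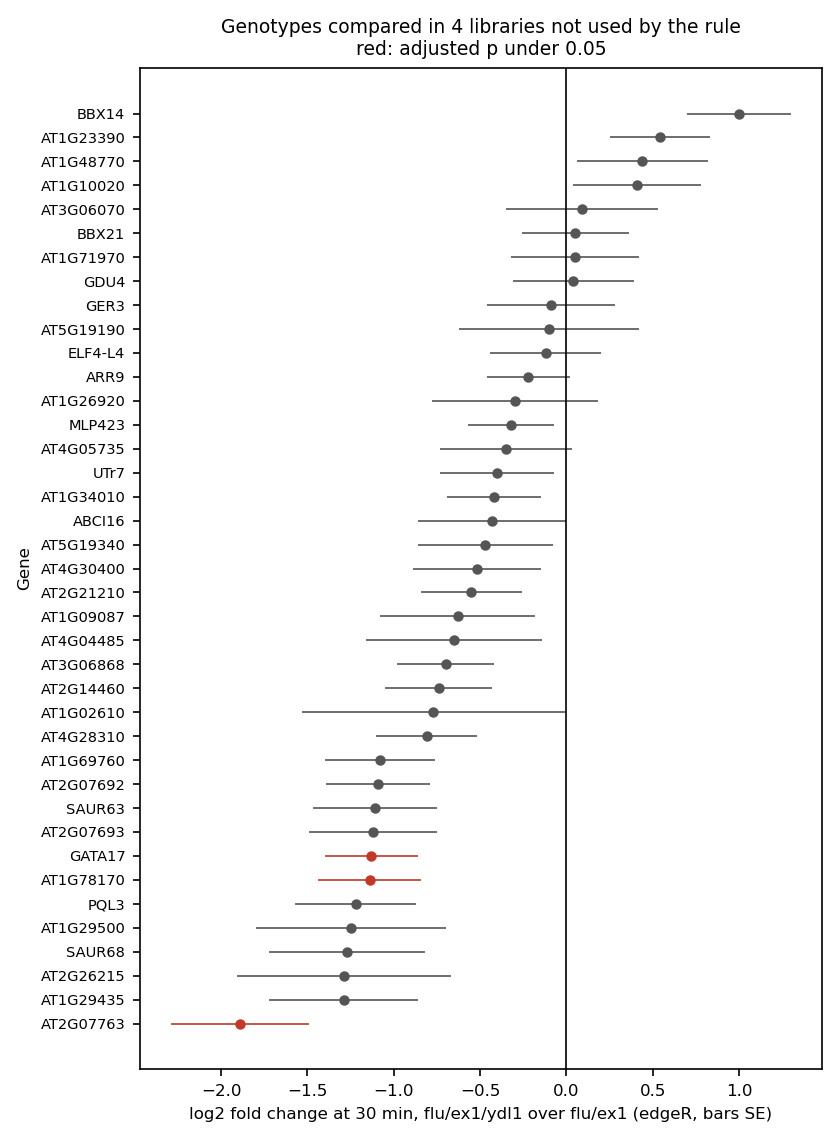
Fitted log2 fold change of flu/ex1/ydl1 over flu/ex1 at 30 min by file name for each of the 39 genes (points, with bars of 1 SE; edgeR after TMM scaling). The 3 red points, AT2G07763, GATA17 and AT1G78170, had an adjusted p under 0.05, 31 of 39 points lie below 0, and BBX14 lies farthest above 0.

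Of the 3 genes called at 30 min, AT2G07763 belongs to a trio on chromosome 2 whose sequence is repeated in the mitochondrial genome. AT2G07692, AT2G07693 and AT2G07763 are 100% identical over 100% of their length to mitochondrial sequence, so their reads could come from either genome. AT2G07692 was at 17.9 and 18.1 CPM, then 18.2 and 18.6, then 15.7 and 13.8 in flu/ex1, and at 20.3 and 19.8, then 11 and 5.14, then 5.67 and 7.71 in flu/ex1/ydl1. AT2G07693, which overlaps it on the opposite strand, was at 11.9 and 18.1, then 18.5 and 17.3, then 20 and 14.3 in flu/ex1, and at 19.6 and 18.7, then 12.6 and 3.42, then 4.86 and 9.57 in flu/ex1/ydl1. At 30 min both were lower without overlap in flu/ex1/ydl1, at -1.09 ± 0.30 and -1.12 ± 0.37 on the log2 scale (edgeR adjusted p 0.0545 and 0.127). Summed counts of mitochondrial loci, on the same CPM scale, at 30 min were 8301 and 10359 in flu/ex1 and 11008 and 8964 in flu/ex1/ydl1, and did not separate the genotypes.

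Read by the labelled times, no member passed between the genotypes. With the 6 labelled groups, 0 of 39 members passed at 0 min (0.0112% of all loci passed), 0 at 30 min (0% of all loci) and 0 at 60 min (0% of all loci) by edgeR. DESeq2 also called 0 members at each time, while it called 0.0224%, 0.0112% and 1.75% of all loci at 0, 30 and 60 min. At unadjusted p under 0.05 in either direction, edgeR counts were 0, 0 and 5 of 39 members at 0, 30 and 60 min. The shares of all loci were 3.99%, 6.77% and 17.8%, so with both directions counted the members' share was not above these. At 60 min 5 members were lower and 0 higher, and of the 17879 loci 1352 were lower and 1836 higher. For lower loci alone, the members' share at 60 min was thus above that of all loci. The 5 were AT2G07693, PQL3, GATA17, AT4G30400 and AT1G78170, each lower in flu/ex1/ydl1. The members' median log2 fold change was -0.12 at 0 min, 0.05 at 30 min and -0.62 at 60 min, where 37 of 39 were below 0 beside 51.4% of all loci. The rule used every library labelled 30 min and some, not all, of those labelled 0 and 60 min, so these values are a description. The libraries outside the rule are those of the 30 min comparison by file name.

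The 4 libraries whose label and file name name one time give 1 library per group and no test. In them the flu/ex1/ydl1 ratio of 60 to 0 min was below 1 for 39 of 39 members and at most 0.4 for 36, and the flu/ex1 ratio was at least 0.8 for 32. Both held for 31 members. All 4 libraries were used by the rule, which by itself puts this flu/ex1/ydl1 ratio below 1 for every member. Shares over all loci were not computed for these counts, so nothing is read from them. The flu/ex1/ydl1 library of 60 min among the 4 is the one in which members stood lowest.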

How the data were processed

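Raw read counts per locus were deposited by the authors, 1 table of 36917 loci for each of 12 libraries. Per the submitters' processing notes, Trimmomatic, FastQC, TopHat2 2.1.1 and featureCounts were used with the build TAIR10. The annotation, and how strand and multi-mapping reads were handled in counting, are not given in the sources used here, so paralogs and overlapping or antisense loci are uncertain. Names and sequences come from RefSeq's TAIR10.1, without coordinates, since that build is not the one the counts were made on.

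CPM were computed on the sum of the deposited counts of the 36632 loci outside the plastid (133) and mitochondrion (152). The fits used the deposited counts, filterByExpr (17879 loci kept), TMM and the quasi-likelihood F test of edgeR 4.0.16 (R 4.3.3), with the 6 groups of genotype and time fitted together over all 12 libraries. Benjamini-Hochberg adjustment covered all loci tested, with a threshold of 0.05. A standard error is the size of the log2 fold change over the square root of F. Scripts were tested on simulated data. Alternatives were DESeq2 1.42.0, its size factors, no filter, nuclear loci only, only the libraries compared, a replicate block and each library left out in turn.

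The members and the gene lists were chosen with earlier results of these data known. Values per library are given for the 10 members with the highest mean CPM at 0 min in flu/ex1/ydl1, the 10 with the lowest ratio there, those past the threshold between genotypes at 30 min, the 3 on each side of each limit (ratios or levels only for loci outside) and members of the lists. AT1G02610, AT2G26215 and AT2G07693, and list genes that are not members, were chosen after their values were seen. Of 22 gene lists set up, 3 hold a member and are reported, and the other 19 are not.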

Additional observations from a re-analysis of the deposited data

How the results depend on the processing

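The number of loci that meet the rule moved with its settings and with the scaling. It was 15 with TMM factors over all loci (8 shared with the 39) and 21 with CPM of all counts (13 shared), both of which also lower every level. With TMM factors over nuclear loci, an alternative chosen after seeing the data, it was 54, of which 24 were shared, so 15 of the 39 depend on the scaling. It was 12 with a flu/ex1/ydl1 ratio of at most 0.3 and 124 with at most 0.5, 56 and 22 with a flu/ex1 ratio of at least 0.7 and 0.9, 98 and 16 with a minimum of 5 and 20 CPM, and 54 with labelled times (10 shared). Leaving out 1 library gave 37 to 385. The number was 385 without flu/ex1/ydl1 30 min replicate 1 (35 shared), 69 without flu/ex1/ydl1 0 min replicate 1 (32 shared) and 68 without flu/ex1/ydl1 30 min replicate 3 (26 shared), by their labels. At 30 min by file name, members past the threshold as lower in flu/ex1/ydl1 were 2 with DESeq2 and 3 with its size factors or nuclear loci only. They were 5 with no filter and 5 with only the 4 libraries compared. Over all loci, lower calls were 63 of 17879 in the main fit, 52 of 17879 with DESeq2 and 65 of 17879 with its size factors. They were 68 of 17632 with nuclear loci only, 162 of 31165 with no filter and 168 of 16252 with the 4 libraries. With 1 library left out, the members' median log2 fold change was -0.57 to -0.49, where the lone library of a group was assumed to vary like the others. Members higher in flu/ex1/ydl1 were 1 with no filter and 1 with only the 4 libraries, beside 858 of 31165 and 860 of 16252 of all loci. With replicate number as a block, 1 member was lower and 1 higher, beside 41 and 625 of all 17879 loci. Deviations of same-numbered libraries from the mean log2 CPM of their own group correlated at -0.24 to 0.28 in 19 pairs by file name (median 0.09, 8 above 0.1). By the labels these deviations correlated at -0.60 to 0.37 (median -0.01, 3 above 0.1). With 2 libraries per group, these values cannot settle whether replicate numbers pair the libraries. By the labels at 60 min, 5 members were lower with no filter and 3 with only the 4 libraries. Over all loci 255 of 31165 and 224 of 16816 were lower in these fits, against 0 of 17879 in the main fit. Leaving out 1 library also changed the number of members called by the labels at 30 and 60 min. The causes of these changes were not tested. The depth of nuclear counts, at most 4209672, limits the low members most.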
